A study of Mus musculus with 8 samples.

Results

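Islets of mice labelled Sting knockout were compared with wild-type islets after both had met the STING agonist DMXAA. The comparison takes every library of the 2 groups, 2 knockout-labelled and 2 wild-type, which are 4 of the 8 libraries in the series. Islets, the hormone-secreting clusters of the pancreas, came from mice aged 25 to 30 weeks, were picked by hand after collagenase digestion and rested overnight in medium. They were then held for 3 h with DMXAA at 50 µg/mL, or with the solvent DMSO for the other 4 libraries, and poly(A) RNA was sequenced. The labels give the genotypes as wildtype and STING KO, without the allele, the strain or how many mice stand behind a library, so p-values measure the spread between libraries, which may be technical.

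STING is an adaptor on the endoplasmic reticulum that is normally switched on by a cyclic dinucleotide made when the enzyme cGAS meets DNA in the cytosol. DMXAA binds mouse STING directly. Active STING recruits the kinase TBK1, which activates IRF3 and, with NF-kB, switches on interferon beta, chemokines and cytokines. Secreted interferon then acts through its receptor, JAK kinases and transcription factors that include STAT2 and IRF9 to raise the interferon-stimulated genes.

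Total counts of the 4 DMXAA libraries ran from 18207064 to 19601850. Sting1 itself was checked first, and it was scarce in all of them, with 23 and 39 counts in the wild-type and 35 and 27 in the knockout-labelled libraries. The log2 difference of 0.00 (SE 0.49, adjusted p = 1) gives no lower transcript level, so the second group is called knockout-labelled throughout. Without the allele it is not known whether counts over the whole gene could report the deletion. Islet identity was clear in every library, since Ins2 was between 120459 and 213638 CPM (each library's counts put on 1 scale with edgeR's TMM factors) in the DMXAA libraries. Transcripts of exocrine acinar cells, which are carried over when islets are picked, had unequal sums in the groups. None of 21 tested acinar markers was called. The summed level of 24 acinar markers was 1678 and 3165 CPM in the wild-type and 444.2 and 389.9 CPM in the knockout-labelled DMXAA libraries, without overlap, and 1488 to 7336 CPM in the DMSO libraries.

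With DMXAA, 407 of 17055 genes differed between the genotypes at an adjusted p under 0.05 in edgeR's quasi-likelihood test, which is 2.39% of the genes tested. Of these, 233 were lower in the knockout-labelled islets (1.37% of the genes tested) and 174 were higher (1.02%). The lower genes differed by more. In the knockout-labelled islets 61 were at least 8-fold lower, whereas 2 were at least 8-fold higher, Apln and Sox2. Sox2, named after its values were seen, was sparse, at 0.0538 and 0.156 CPM against 1.94 and 0.819 CPM, and its adjusted p of 0.0484 became 0.424 without wild-type DMXAA library 1, 0.201 without wild-type DMXAA library 2, 0.181 without knockout-labelled DMXAA library 1, 0.0563 or 0.062 without either wild-type DMSO library, and over 0.05 in most other settings. The median log2 difference over all genes tested was 0.04, and all log2 differences below are knockout-labelled minus wild type. Leaving out wild-type DMXAA library 1 left 205 calls (154 lower, 51 higher), leaving out knockout-labelled DMXAA library 2 left 254, and leaving out its library 1 gave 674. With the acinar sum as a covariate 168 calls were made, 115 lower and 53 higher. That sum did not overlap between the DMXAA groups, so this fit cannot fully separate it from genotype. A call lost in it, here and below, need not have a smaller difference.

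**Figure D1:**
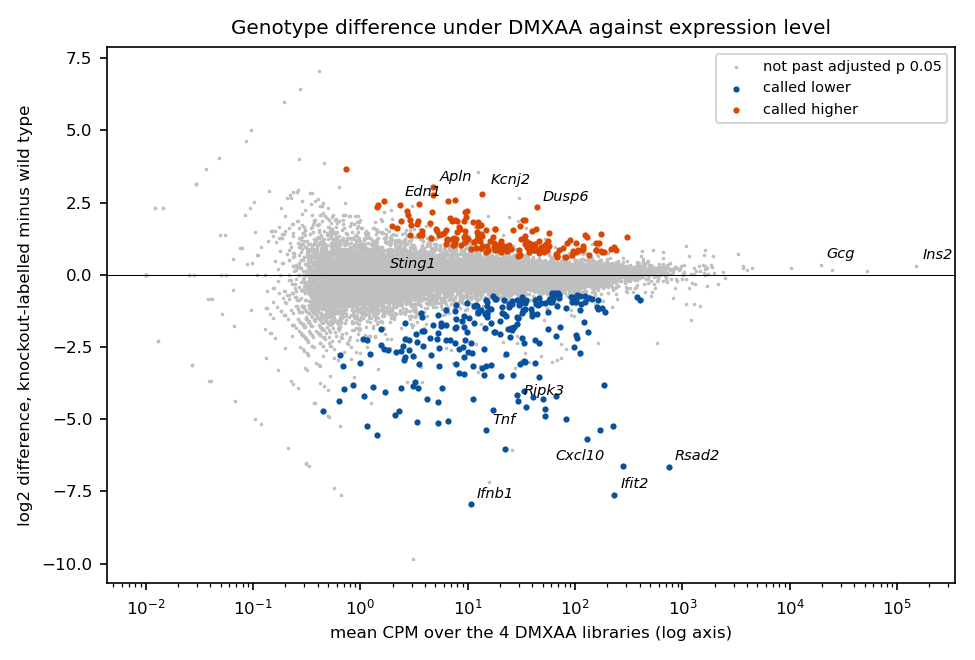
Each point is 1 of 17055 genes, with its mean CPM over the 4 DMXAA libraries on a log axis and its log2 difference, knockout-labelled minus wild type, on the other axis. Blue points mark 233 genes called lower and orange points 174 called higher; the lower genes reach a log2 difference of -7.94, while the abundant hormone transcripts Ins2 and Gcg lie at 0.32 and 0.35.

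The DMSO libraries, which do not enter this contrast, show which group stood apart. For 214 of the 233 lower genes (91.8%) both wild-type DMXAA libraries lay above the other 6 libraries, a pattern held by 7.16% of all genes tested. Both knockout-labelled DMXAA libraries lay below the other 6 for 35 of them (15%, against 4.67% of all genes tested). The higher genes were of both kinds. For 119 of the 174 (68.4%, against 8.41% of all genes tested) both wild-type DMXAA libraries lay below the other 6, and for 104 (59.8%, against 4.82%) both knockout-labelled DMXAA libraries lay above the other 6. These counts are descriptions, since calling a gene already sets its 4 DMXAA libraries apart.

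Interferon beta was nearly absent from the knockout-labelled islets. Ifnb1, the type I interferon that STING signalling induces directly, had 797 counts over the wild-type libraries (28.9 and 13.6 CPM) and 3 counts over the knockout-labelled ones (0.145 and 0 CPM). The ratio was 265-fold, with a 95% exact binomial interval of 90.4 to 1289 that covers counting error only (adjusted p = 6.92e-06). In the DMSO libraries it lay between 0 and 0.0667 CPM. Of the 20 type I and III interferon genes listed, Ifnb1 alone passed the filter on low counts. A total of 7 others, 6 of them interferon alpha genes, had 0 counts in all 4 DMXAA libraries, which allows up to 3 counts in a library.

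Most genes of the upstream machinery were not called, and those called were lower and included DNA sensors. Of 22 tested genes of the cytosolic DNA sensing and STING axis, 6 were lower and 0 higher, with a median log2 difference of -0.42. The shares over all genes tested were 1.37% lower and 1.02% higher. Ifi203 lay at 33.3 and 41.7 CPM in the wild-type and at 4.6 and 1.81 CPM in the knockout-labelled libraries (log2 difference -3.51, SE 0.31, adjusted p = 1.7e-05). It belongs to the Ifi200 family of DNA-binding proteins, as do Mndal (log2 difference -3.47) and Ifi204 (-3.22), which were also called. Ifi203 and Mndal overlap in the annotation, so their reads may not be fully separated. The kinase gene Tbk1 was at 45.9 and 41.3 CPM against 42.2 and 27.5 CPM (adjusted p = 0.51), and Irf3, its substrate, at 36.8 and 35.5 against 27.0 and 23.7 CPM (adjusted p = 0.17). Tbk1 and Irf3 did not pass the test, and both were named after their values were seen. The count of lower genes in this list was 3 without wild-type DMXAA library 2. With the acinar covariate it was 2, and Ifi204 had a log2 difference of -2.39 (adjusted p = 0.0526).

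Transcription factors of the interferon response were lower by smaller margins. Stat2 was at 169 and 196 CPM in the wild-type and at 72.8 and 44.9 CPM in the knockout-labelled libraries, so the groups were well apart (log2 difference -1.63, SE 0.20, adjusted p = 0.000405). The log2 difference was -0.94 for Irf9 (adjusted p = 0.00744), the DNA-binding factor that works with STAT2. Of 13 genes of the interferon receptors and the JAK-STAT pathway 3 were lower and 0 higher, against 1.37% and 1.02% of all genes tested. Of 9 IRF genes 3 were called, all lower, among them Irf1 and Irf7, with a log2 difference of -1.30 (adjusted p = 0.00353) for Irf7, the factor that amplifies interferon production. Single libraries decided some of these calls. The adjusted p was 0.0548 for Irf7 and 0.159 for Irf9 without wild-type DMXAA library 2. It was 0.0663 for Irf9 without knockout-labelled DMXAA library 2. With the acinar covariate it was 0.185 for Irf9 and 0.0565 for Irf7.

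The interferon-stimulated antiviral effectors made up the main block of lower genes. Of 82 listed genes 79 were tested, with a median log2 difference of -1.80. Of these, 63 were lower and 0 higher, against 1.37% and 1.02% of all genes tested. The summed level of the list was 8183 and 8866 CPM in the wild-type and 2372 and 2242 CPM in the knockout-labelled libraries. The latter lay close to the DMSO libraries, which held 2344 and 2312 CPM in wild-type and 2221 and 1998 CPM in knockout-labelled islets. Fewer cells of a type and less RNA per cell cannot be told apart in bulk islets, here and in all results below. With the acinar covariate, which did not overlap between the DMXAA groups, 28 members were lower. The part of the acinar difference in the rest was not tested.

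Rsad2, which encodes the antiviral enzyme viperin, was the most abundant of the genes with large differences, at 1446 and 1497 CPM in the wild-type and 19.8 and 9.48 CPM in the knockout-labelled libraries (log2 difference -6.64, SE 0.35, adjusted p = 2.02e-06). Ifit2, whose product binds foreign RNA, was at 472 and 449 CPM against 2.61 and 2.05 CPM (log2 difference -7.61, SE 0.34, adjusted p = 2.04e-07). Oasl1, an oligoadenylate synthetase-like protein, was at 256 and 249 CPM against 4.55 and 5.33 CPM (log2 difference -5.68, SE 0.19, adjusted p = 2.97e-09). In all 3 the groups were far apart. The mitochondrial nucleotide kinase gene Cmpk2, a neighbour of Rsad2 on chromosome 12, held 350 CPM in both wild-type libraries and 24.3 and 25.9 CPM in the knockout-labelled ones (log2 difference -3.80, adjusted p = 3.49e-08). Leaving out any library or changing any setting that was tried kept these 4 calls.

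Several multigene families of interferon-induced proteins were lower in most of their tested members. They were assembled by symbol after the values were seen, and 1.37% of all genes tested were called lower. All 6 IFIT genes tested were lower, with a median log2 difference of -5.06. So were all 7 immunity-related GTPases (-3.91), which attack the vacuoles of intracellular parasites, and both Mx genes (-4.26). In the Ifi200 family 10 of 11 were lower, the exception being Aim2. Among the guanylate-binding proteins 9 of 10 were lower, and the oligoadenylate synthetases had 6 of 9 and the Schlafen family 6 of 7. Under DMSO none of these families held a called gene, which is near the share of 0.223% called over all genes tested. The median log2 differences of the families there lay between -0.61 and 0.13. Near-identical copies, such as Ifit3 and Ifit3b or Tgtp1 and Tgtp2, may share reads, so their separate values are uncertain. Gbp5, which drives inflammasome responses, was at 177 and 139 CPM against 7.07 and 2.63 CPM (log2 difference -5.00, adjusted p = 0.00441), with -5.02 (adjusted p = 0.0513) when no filter on low counts was used and -5.33 (adjusted p = 0.113) with the acinar covariate.

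Not every interferon-stimulated gene was called. The 16 list members that were not included Ifitm3, a restriction factor of viral entry, at 33.5 and 57.3 CPM against 24.9 and 23.8 CPM (adjusted p = 0.149). Bst2, which tethers budding virions, was at 24.9 and 37.1 CPM against 21.2 and 23.4 CPM (adjusted p = 0.472). The groups did not overlap in either gene, but the wild-type libraries stood apart from each other, and both genes were named after their values were seen.

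**Figure D2:**
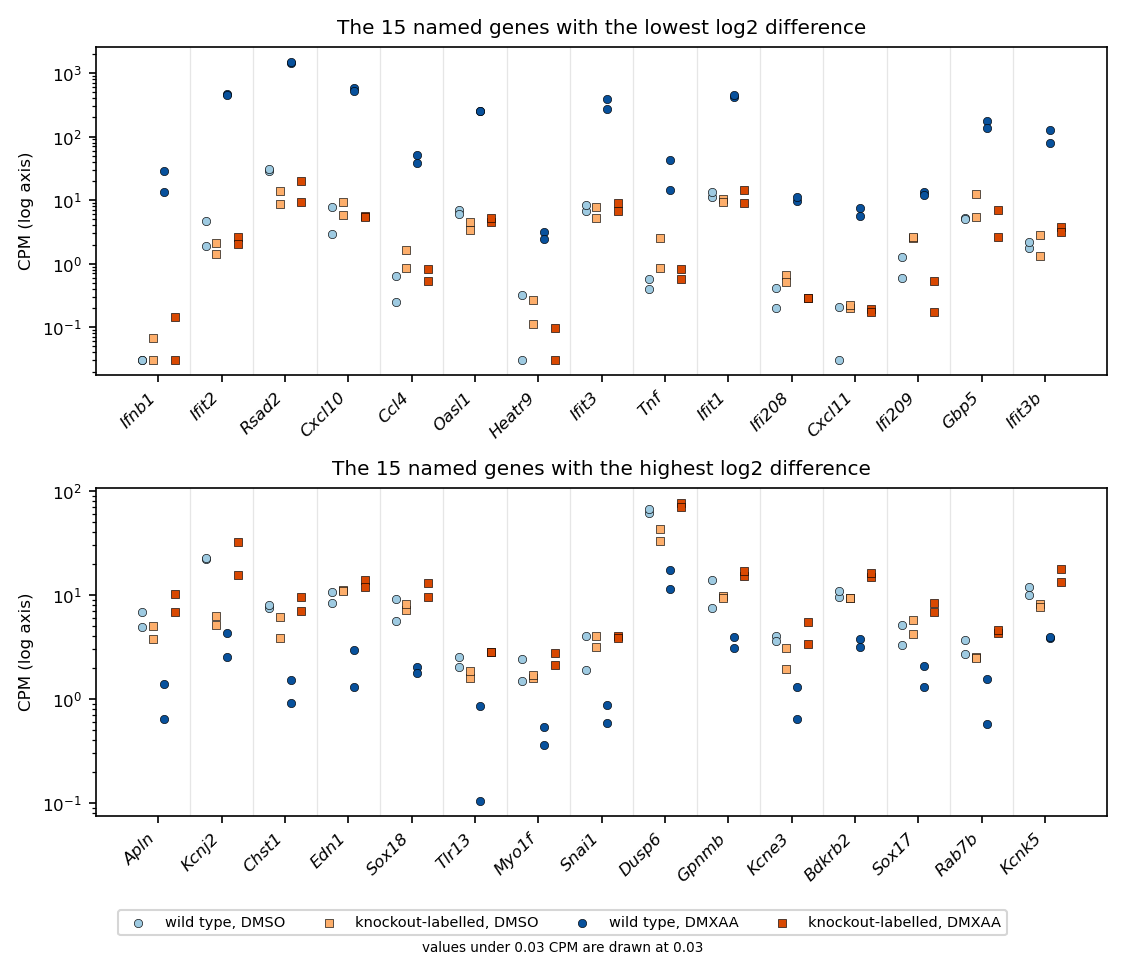
CPM of each library on a log axis for the 15 genes with the lowest (top) and the 15 with the highest (bottom) log2 difference among those that met the rule for named genes; circles are wild-type and squares knockout-labelled libraries, pale with DMSO and dark with DMXAA. In the top panel the dark circles lie above the 6 other libraries of each gene; in the bottom panel the dark circles are the lowest points.

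Chemokines were the second block. Of 20 tested CXC and CC chemokines 9 were lower and 1 was higher, against 1.37% and 1.02% of all genes tested. The median log2 difference was -1.55. The summed level of the list was 880.1 and 848.7 CPM in the wild-type against 108.0 and 119.4 CPM in the knockout-labelled libraries. Cxcl10, which attracts T cells through CXCR3, was at 574 and 521 CPM against 5.71 and 5.44 CPM (log2 difference -6.61, SE 0.40, adjusted p = 2.87e-05). Ccl4, an inflammatory chemokine, was at 50.4 and 38.1 CPM against 0.533 and 0.819 CPM (log2 difference -6.04, SE 0.35, adjusted p = 3.98e-07). The monocyte attractant Ccl2 was at 32.7 and 65.3 CPM against 4.6 and 4.16 CPM (log2 difference -3.48, adjusted p = 2.27e-05), and the neutrophil attractant Cxcl1 at 37.4 and 41.5 CPM against 6.34 and 5.38 CPM (log2 difference -2.74, adjusted p = 8.46e-06). No overlap occurred in any of these 4, as the rule for named genes required, and all 4 calls were kept under every setting that tested them. Cxcl12, the stromal chemokine that retains progenitor cells, went the other way, at 3.88 and 7.96 CPM against 21.4 and 16.9 CPM (log2 difference 1.69, adjusted p = 0.00446). It was named after its values were seen, and had an adjusted p of 0.0635 without wild-type DMXAA library 1 and 0.0848 with the acinar covariate.

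The median log2 difference was -0.71 over 19 tested interleukins, TNF family members and growth factor cytokines. Of these, 4 were lower and 0 higher, against 1.37% and 1.02% of all genes tested. The count was 2 without knockout-labelled DMXAA library 1 or with the stricter filter, and 1 without knockout-labelled DMXAA library 2 or with the acinar covariate. Il15 lost its call in 10 of 15 alternatives and Il1rn in 4 of 16. Tnfsf10, which encodes the death ligand TRAIL, was at 40.0 and 40.6 CPM against 8.71 and 9.19 CPM (log2 difference -2.17, SE 0.19, adjusted p = 1.36e-05). Tnf was at 43.4 and 14.5 CPM against 0.581 and 0.819 CPM, a large difference with unequal wild-type libraries (log2 difference -5.37, SE 0.71, adjusted p = 0.00633). That call was lost on leaving out either knockout-labelled DMXAA library (adjusted p = 0.106 without library 1 and 0.205 without library 2), without the filter on low counts (0.126) and with the acinar covariate (0.103). Il6 was at 64.9 and 124 CPM against 53.8 and 35.4 CPM and was not called (adjusted p = 0.116); it was named after its values were seen.

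Of 22 tested NF-kB genes 4 were lower and 0 higher (median log2 difference -0.54), against 1.37% lower and 1.02% higher over all genes tested. No subunit gene was among the 4. The 4 were the inhibitors Tnfaip3 and Nfkbia and the adhesion molecules Sele and Vcam1, whereas other inhibitors such as Nfkbib and Nfkbie were not called. Without wild-type DMXAA library 2, or without knockout-labelled DMXAA library 2, 2 were lower. Adjusted p without these libraries was 0.0927 and 0.0976 for Sele and 0.134 and 0.352 for Vcam1, which lost its call in 8 of 16 alternatives. Tnfaip3, encoding the ubiquitin-editing inhibitor A20, was at 76.9 and 63.3 CPM against 16.8 and 12.7 CPM (log2 difference -2.25, SE 0.19, adjusted p = 9.34e-06). Nfkbia, encoding the inhibitor that holds NF-kB in the cytosol, was at 164 and 137 CPM against 76.8 and 73.4 CPM (log2 difference -1, SE 0.15, adjusted p = 0.00126). Both calls were kept under every setting. The subunit gene Rela, by contrast, was at 70.1 and 75.7 CPM against 68.9 and 55.4 CPM (adjusted p = 0.598; named after its values were seen). Among 13 feedback and checkpoint genes 5 were lower, including Cd274, which encodes PD-L1, at 111 and 108 CPM against 28.0 and 22 CPM (log2 difference -2.12, SE 0.17, adjusted p = 7.56e-06). Socs1, the inhibitor of JAK kinases, was at 11.9 and 8.79 CPM against 1.79 and 2.58 CPM (log2 difference -2.26, adjusted p = 0.00347). The counts of lower genes were 2 and 3 in these lists with the acinar covariate.

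Genes of necroptosis, an inflammatory form of cell death, were among those lower. In the cell death list 4 of 24 tested genes were lower and 1 was higher, against 1.37% and 1.02% of all genes tested. The list median was -0.12. Ripk3, the kinase that starts necroptosis, was at 69.4 and 41.9 CPM against 2.76 and 2.57 CPM (log2 difference -4.38, SE 0.29, adjusted p = 1.45e-06), and the 2 groups lay far apart. Mlkl, which perforates the membrane when RIPK3 phosphorylates it, was at 15.8 and 17.3 CPM against 8.96 and 6.55 CPM (log2 difference -1.09, adjusted p = 0.0196). Without wild-type DMXAA library 1 its adjusted p was 0.107, without library 2 it was 0.154, without knockout-labelled DMXAA library 2 it was 0.142, and it was 0.0635 in a fit of the 4 libraries alone and 0.34 with the acinar covariate, where 2 members of the list were lower and 0 higher. There were 2 lower members also without wild-type or knockout-labelled DMXAA library 2, and 0 higher without either wild-type DMXAA library. In the MHC class I list 3 of 23 genes were lower and 0 higher (median -0.27), led by the peptide transporter gene Tap1 at 64.2 and 63.4 CPM against 28.7 and 21.3 CPM (log2 difference -1.35, SE 0.18, adjusted p = 0.000566); 1 was lower with the acinar covariate or without wild-type DMXAA library 1, and 5 without knockout-labelled DMXAA library 1.

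Promoter sequences of several of these genes are shown for the short motifs that they hold. The 250 bases before the start site are given 5′ to 3′ on the gene's strand, from RefSeq on GRCm38.p6, and capitals mark each match to GAAANNGAA, the core of an interferon response element, or to GGANNTTCC, a core of NF-kB sites, on either strand. Ifnb1 lies at chr4:88522795-88523044 (minus strand), Cxcl10 at chr5:92348890-92349139 (minus strand), Ifit1 at chr19:34640639-34640888 (plus strand), Rsad2 at chr12:26456453-26456702 (minus strand) and Gbp5 at chr3:142496684-142496933 (plus strand). Edn1, at chr13:42301226-42301475 (plus strand), is added as a gene that was higher in the knockout-labelled islets and still holds a match.
Ifnb1: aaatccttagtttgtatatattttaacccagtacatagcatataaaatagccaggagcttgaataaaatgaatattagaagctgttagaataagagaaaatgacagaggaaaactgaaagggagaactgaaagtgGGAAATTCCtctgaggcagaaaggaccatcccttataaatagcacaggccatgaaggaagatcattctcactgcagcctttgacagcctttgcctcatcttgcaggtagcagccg
Cxcl10: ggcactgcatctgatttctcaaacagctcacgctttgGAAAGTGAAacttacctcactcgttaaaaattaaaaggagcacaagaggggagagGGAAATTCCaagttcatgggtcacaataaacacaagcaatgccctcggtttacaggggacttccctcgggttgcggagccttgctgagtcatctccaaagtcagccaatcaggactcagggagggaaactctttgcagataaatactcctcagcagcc
Ifit1: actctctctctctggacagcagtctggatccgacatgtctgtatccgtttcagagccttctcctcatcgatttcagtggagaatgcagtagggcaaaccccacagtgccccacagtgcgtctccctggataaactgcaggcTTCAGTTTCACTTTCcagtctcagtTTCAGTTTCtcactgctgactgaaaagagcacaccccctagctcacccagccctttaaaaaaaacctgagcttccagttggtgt
Rsad2: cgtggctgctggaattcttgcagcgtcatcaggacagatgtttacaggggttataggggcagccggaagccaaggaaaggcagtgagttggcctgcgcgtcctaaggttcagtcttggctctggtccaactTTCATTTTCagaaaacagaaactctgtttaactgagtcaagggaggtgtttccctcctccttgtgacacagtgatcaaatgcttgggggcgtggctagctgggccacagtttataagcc
Gbp5: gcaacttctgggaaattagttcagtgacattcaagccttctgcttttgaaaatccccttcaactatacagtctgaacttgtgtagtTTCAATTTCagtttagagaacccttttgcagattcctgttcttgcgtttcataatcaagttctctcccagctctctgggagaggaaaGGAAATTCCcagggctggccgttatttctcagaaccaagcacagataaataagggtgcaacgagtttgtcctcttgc
Edn1: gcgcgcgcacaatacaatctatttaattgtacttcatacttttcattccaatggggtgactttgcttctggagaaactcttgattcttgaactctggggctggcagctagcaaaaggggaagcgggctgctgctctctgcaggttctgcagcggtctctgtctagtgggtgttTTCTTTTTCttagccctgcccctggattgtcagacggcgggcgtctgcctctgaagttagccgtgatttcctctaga

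Ifnb1 held the NF-kB core, reading as a match on both strands, and no match to the interferon core. Cxcl10 and Gbp5 held both motifs, Ifit1 held 3 matches to the interferon core, with the first 2 overlapping, and Rsad2 held 1. Among genes called lower, 177 of 233 had a promoter in the table, and 68 of these (38.4%) held the interferon core in the 300 bases tabulated, against 7.17% of 11813 promoters of all genes tested. The NF-kB core was found in 23 (13.0%, against 4.56%). Of 46 promoters of genes at least 8-fold lower, 26 (56.5%) held the interferon core and 12 (26.1%) the NF-kB core. Promoters of the higher genes were near the background, with the interferon core in 12 of 130 (9.23%) and the NF-kB core in 5 (3.85%). A match is a run of letters, not a shown binding site, and sites spelled otherwise were not searched. The lack of an interferon core in Ifnb1 therefore does not show that it lacks such a site. Ifit2 also held no interferon core, and Oasl1 held neither motif in this window despite its large difference.

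Vascular genes held the largest share of higher members of any list, but the lists were chosen with earlier results of these data known. This rank is therefore only a description. Of 21 tested vascular peptides, channels and connexins 14 were higher and 0 lower, against 1.02% higher over all genes tested. The median log2 difference of the list was 1.32. Edn1, the vasoconstrictor endothelin, was at 1.29 and 2.97 CPM in the wild-type and 13.9 and 12 CPM in the knockout-labelled libraries (log2 difference 2.60, SE 0.31, adjusted p = 0.000288). The DMSO libraries lay between 8.31 and 11.2 CPM, so the wild-type DMXAA libraries were the low ones. Gja1, encoding connexin 43, was at 10.8 and 17 CPM against 60.7 and 43.7 CPM (log2 difference 1.91, adjusted p = 0.000249), and Chst1, a sulfotransferase, at 0.915 and 1.51 CPM against 9.63 and 6.96 CPM (log2 difference 2.77, adjusted p = 0.000505). The groups overlapped in neither gene, as the rule for named genes required. Apold1, an endothelial early-response gene, was at 32.9 and 36.2 CPM against 74 and 81.9 CPM (log2 difference 1.17, adjusted p = 0.000344). These 4 calls were kept under every setting. So were those of Hey1, Jag1 and Ednrb (log2 differences 1.86, 1.60 and 0.98; named after their values were seen), and these 7 were the ones called higher in the list with the acinar covariate.

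Apln and Kcnj2 were called in every setting but 1. Apln, the peptide apelin, was at 0.646 and 1.41 CPM against 10.2 and 6.79 CPM (log2 difference 3.04, adjusted p = 0.000508), and Kcnj2, an inward rectifier potassium channel, at 2.53 and 4.32 CPM against 32.0 and 15.4 CPM (log2 difference 2.79, adjusted p = 0.000694). With the acinar covariate the log2 difference was 2.71 for Apln (adjusted p = 0.0599) and 2.97 for Kcnj2 (adjusted p = 0.0559). The bradykinin receptor gene Bdkrb2 (log2 difference 2.16, adjusted p = 7.33e-05) and the potassium channel gene Kcnk5 (2.00, adjusted p = 0.000249) were kept under every setting. The SOX group F genes Sox7, Sox17 and Sox18, transcription factors of vessel development, were all called higher, with a median log2 difference of 2.16. For Sox7 the adjusted p of 0.0428 rose above 0.05 in the absence of any library other than wild-type DMSO library 2 and knockout-labelled DMXAA library 2, to between 0.0536 and 0.397. Sox18 was at 2.05 and 1.77 CPM against 9.59 and 13.0 CPM (adjusted p = 0.000393, and 0.0788 with the acinar covariate), and Sox17 at 1.29 and 2.08 CPM against 8.38 and 6.79 CPM (adjusted p = 0.00288, but 0.0601 without wild-type DMXAA library 1 and 0.198 with the acinar covariate).

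General endothelial markers were higher by less. Of 18 tested, 10 were higher and 0 lower, against 1.02% and 1.37% of all genes tested, with a median log2 difference of 0.72. The summed level was 836.4 and 865.3 CPM in the wild-type against 1613 and 1475 CPM in the knockout-labelled DMXAA libraries. The DMSO libraries were between those 2 groups, at 1046 and 1310 CPM in wild-type and 968.0 and 880.0 CPM in knockout-labelled islets. Kdr, the receptor for VEGF, was at 101 and 108 CPM against 243 and 209 CPM (log2 difference 1.11, SE 0.15, adjusted p = 0.000616). Egfl7, a secreted endothelial protein, was at 12.4 and 16.7 CPM against 60.9 and 46.8 CPM (log2 difference 1.89, adjusted p = 0.000355), while Tie1, the endothelial receptor kinase, at 29.9 and 29.9 against 40.5 and 39.7 CPM, was not called (adjusted p = 0.33; named after its values were seen). The count of 10 fell to 3 without wild-type DMXAA library 1, to 4 without wild-type library 2, and to 6 without either knockout-labelled DMXAA library. With the acinar covariate it was 0, while the log2 difference was 1.02 for Kdr (adjusted p = 0.0666) and 1.43 for Egfl7 (adjusted p = 0.0915). The part of the acinar difference in these values was not tested.

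**Figure D3:**
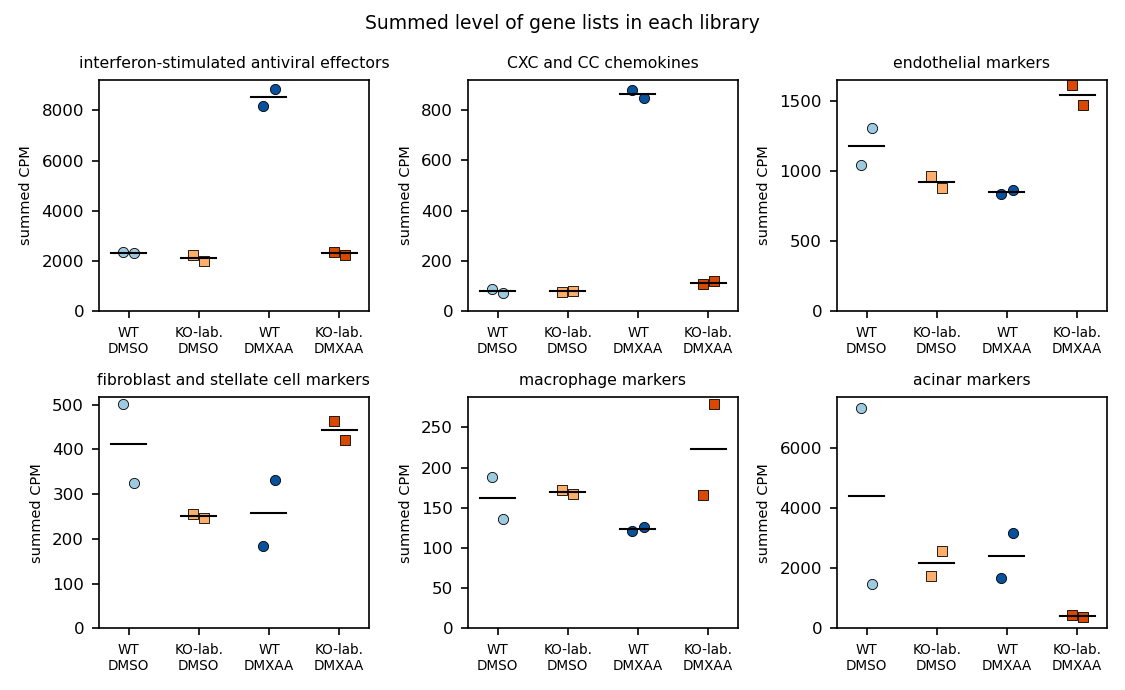
Summed CPM of 6 gene lists in each of the 8 libraries, with a bar at the mean of each group's 2 libraries and the axis from 0. Interferon-stimulated and chemokine genes stand high in the wild-type DMXAA libraries alone, endothelial markers are highest and acinar markers lowest in the knockout-labelled DMXAA libraries, and macrophage markers spread from 166.0 to 279.5 CPM within that group.

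Early-response and feedback genes were called in both directions. In the list of immediate early and ERK feedback genes 3 of 36 were lower and 4 higher. The shares over all genes tested were 1.37% lower and 1.02% higher. Dusp6, the phosphatase that switches off ERK and is induced by it, was at 11.4 and 17.3 CPM in the wild-type against 76.6 and 69.9 CPM in the knockout-labelled libraries (log2 difference 2.35, SE 0.21, adjusted p = 1.63e-05). Klf10 was at 22.2 and 25.8 CPM against 50.5 and 51.8 CPM (log2 difference 1.09, adjusted p = 0.00121), and the p53 target Plk2, 1 of 2 higher genes among 18 p53 targets, at 21.6 and 21.6 CPM against 70.7 and 60.3 CPM (log2 difference 1.60, adjusted p = 9.42e-05). Ppp1r15a, encoding the GADD34 subunit that ends translational arrest, went the other way, at 305 and 230 CPM against 97.5 and 123 CPM (log2 difference -1.28, SE 0.19, adjusted p = 0.00144). Groups did not overlap in any of the 4, as the rule for named genes required, and all 4 calls were kept under every setting. In the early gene list 0 were lower without wild-type DMXAA library 1 or knockout-labelled DMXAA library 2, and 1 without wild-type library 2, without knockout-labelled library 1 or with the acinar covariate. There were 2 higher without either wild-type DMXAA library or with the covariate.

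Macrophage transcripts were scarce and uneven. Of 21 tested macrophage markers 3 were higher and 0 lower, against 1.02% and 1.37% of all genes tested. The summed level was 120.7 and 126.2 CPM in the wild-type against 166.0 and 279.5 CPM in the knockout-labelled libraries. Itgax, which encodes CD11c, was at 2.96 and 3.38 CPM against 8.62 and 8.31 CPM (log2 difference 1.41, adjusted p = 0.0057), with an adjusted p of 0.11 without wild-type DMXAA library 1 and 0.0795 with the acinar covariate. Adgre1, which encodes the macrophage marker F4/80, was at 2.15 and 2.65 CPM against 4.41 and 7.49 CPM and was not called (log2 difference 1.29, adjusted p = 0.0944), although it was without the filter on low counts (0.0264), in DESeq2 (0.0471) and without knockout-labelled DMXAA library 1 (0.031). The list had 0 called members without wild-type DMXAA library 1, 1 without knockout-labelled DMXAA library 2 and 8 without its library 1. Gpnmb, a glycoprotein of phagocytes among other cells, was higher under every setting, at 3.07 and 3.90 CPM against 15.2 and 17 CPM (log2 difference 2.21, adjusted p = 0.000658). Fibroblast and stellate cell markers had 1 of 16 called, higher, and B and T lymphocyte markers 0 of 12.

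Hormone genes and endocrine cell markers had no called member. None of 8 hormone genes, 21 islet transcription factors, 12 beta cell markers or 12 alpha, delta and PP cell markers was called. The share called over all genes tested was 2.39%, and at that share lists this short may hold no called member. The median log2 differences of these lists were 0.45, 0.03, 0.16 and 0.38, in that order. All 8 hormone genes lay above 0, from 0.12 to 0.86. Ins1 was at 56103 and 43413 CPM in the wild-type against 35562 and 72474 CPM in the knockout-labelled libraries (log2 difference 0.12, SE 0.30, adjusted p = 0.905), so the knockout-labelled libraries fell on either side of the wild-type ones. Gcg was at 16277 and 17693 CPM against 18728 and 24607 CPM (log2 difference 0.35, adjusted p = 0.521), and Pax6, an islet transcription factor, at 361 and 381 CPM against 371 and 338 CPM (log2 difference -0.06, adjusted p = 0.895). In the list on glucose sensing and secretion 2 of 40 genes were lower, against 1.37% of all genes tested. Gipr, the receptor for the incretin GIP, was at 201 and 169 CPM against 108 and 96.8 CPM (log2 difference -0.85, adjusted p = 0.0153), but had an adjusted p of 0.234 without wild-type DMXAA library 1 and 0.113 without knockout-labelled DMXAA library 2. Unc13a, a priming factor of vesicles (log2 difference -0.89, adjusted p = 0.044), was lost without any 1 of the libraries other than knockout-labelled DMXAA library 1, with adjusted p between 0.0678 and 0.227. No member of this list was called lower without wild-type DMXAA library 1 or without knockout-labelled DMXAA library 2.

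**Figure D4:**
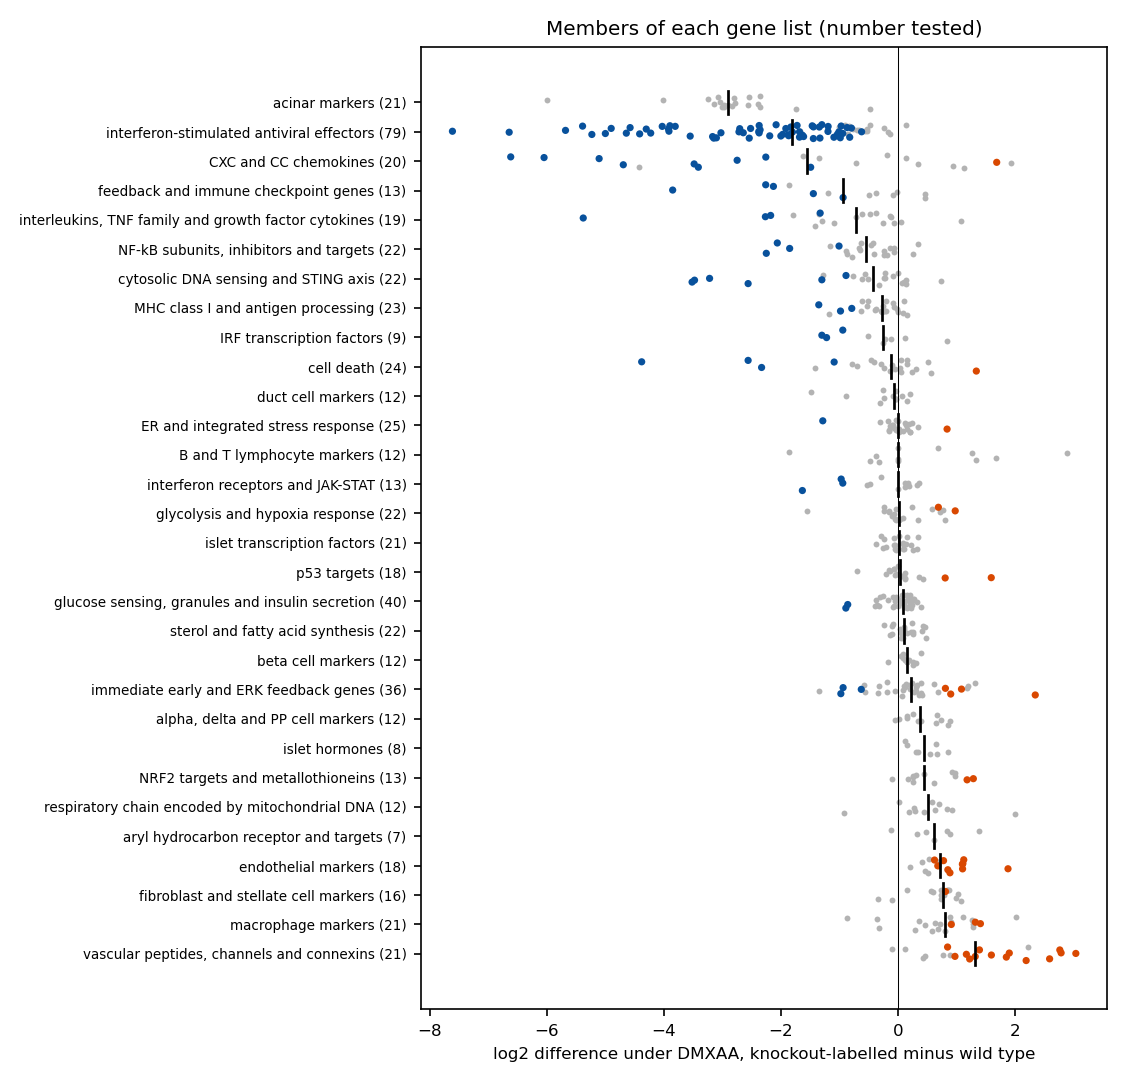
Log2 difference under DMXAA, knockout-labelled minus wild type, of every tested member of the gene lists with 7 or more tested members; blue and orange points were called lower and higher, grey points were not called, the black bar is the median, and the number tested stands in brackets. Interferon-stimulated genes and chemokines reach far to the left and vascular genes to the right. Islet transcription factors and beta cell markers have medians of 0.03 and 0.16, and hormone genes lie to the right of 0 (median 0.45). The acinar markers lie far left without a called member.

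Acinar markers themselves had a median log2 difference of -2.90 without a called member among 21 tested, where 2.39% of all genes tested were called. Ctrb1, which encodes chymotrypsinogen, was at 719 and 1213 CPM in the wild-type against 226 and 153 CPM in the knockout-labelled DMXAA libraries (adjusted p = 0.37), and at 536 to 2768 CPM in the DMSO libraries. It was named after its values were seen.

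Fewer genes were called between the genotypes with DMSO. The DMSO libraries, which share none with the comparison above, gave 38 called genes (0.223% of the genes tested), 31 higher and 7 lower in knockout-labelled islets. That count rested on single libraries, with 240 calls without wild-type DMSO library 2, 24 without its library 1, 3 and 6 without knockout-labelled DMSO libraries 1 and 2, and 94 and 80 without knockout-labelled DMXAA libraries 1 and 2, which enter the shared spread. A total of 10 genes was called under both treatments, which is 2.46% of the 407 and 26.3% of the 38, and 8 of them differed in the same direction. Tshz3, a zinc finger factor, was at 62.7 and 59.6 CPM in the wild-type against 31.4 and 27.1 CPM with DMXAA (log2 difference -1.06, adjusted p = 0.00182) and at 56.2 and 70.0 CPM against 31.3 and 33.1 CPM with DMSO (log2 difference -0.97, adjusted p = 0.0279). This call was kept under every setting. Hmox1, encoding haem oxygenase, was higher under both, at 137 and 214 CPM against 378 and 481 CPM with DMXAA (log2 difference 1.29, adjusted p = 0.00304), but with an adjusted p of 0.0693 without wild-type DMXAA library 1 and 0.13 with the acinar covariate.

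Irf1 and Kcnj2 were called under both treatments in opposite directions. Irf1, an interferon-induced transcription factor, was at 165 and 144 CPM in the wild-type against 65.7 and 67.8 CPM in the knockout-labelled DMXAA libraries (log2 difference -1.22, adjusted p = 0.00059), and at 38.6 and 50.9 against 89.3 and 86.0 CPM with DMSO (log2 difference 0.97, adjusted p = 0.0289). Kcnj2 was at 22.1 and 22.4 CPM against 6.27 and 5.15 CPM with DMSO (log2 difference -1.97, adjusted p = 0.0408). A direct test of whether the genotype difference changed with treatment called 204 genes (1.2% of the genes tested), but 117 without wild-type DMXAA library 1 and 94 and 87 without knockout-labelled DMSO libraries 1 and 2. It shares libraries with both comparisons, and 36 of the 79 interferon-stimulated effectors, 7 of 20 chemokines, 11 of 21 vascular genes and 9 of 18 endothelial markers were among the genes it called.

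**Figure D5:**
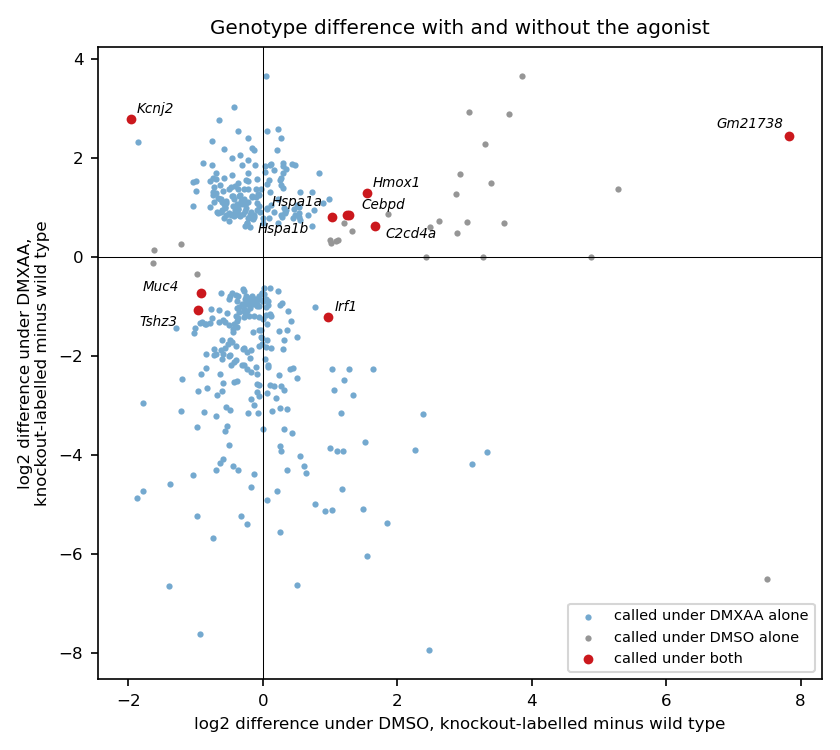
Log2 difference between the genotypes with DMSO (horizontal) and with DMXAA (vertical) for genes called under either treatment, with the 10 called under both in red and named. Of the 407 genes called with DMXAA 10 are red, and Irf1 and Kcnj2 have opposite signs on the axes.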

How the data were processed

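Poly(A) RNA of 8 islet libraries was measured as raw counts per Ensembl gene; the authors deposited 1 count table per library, with 54532 identifiers each. Per the submitters' processing notes, HISAT2 and HTSeq were used with mm10. Their versions, the annotation and the strand setting: not given in the sources used here. Symbols came from GENCODE M21 (54495 identifiers matched). The members and gene lists were chosen with earlier results of these data known.

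Genes were filtered with filterByExpr by group (17055 kept), scaled by TMM and fitted in edgeR 4.0.16 (R 4.3.3) to all 8 libraries with 1 coefficient per group, leaving 4 residual degrees of freedom; the quasi-likelihood F-test, robust and in its newer form, gave p-values, adjusted by Benjamini-Hochberg over all genes, with 0.05 as the threshold. Standard errors are the log2 difference over the root of F. The biological coefficient of variation was 17.1%. CPM were computed from the deposited counts with TMM-scaled library sizes. Steps were tested on simulated counts.

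Named genes needed an official symbol, a mean of 1 CPM, an adjusted p under 0.05 and no overlap; the 15 lowest and 15 highest, up to 4 called members of each list, 13 genes fixed by name and 8 genes called alike under DMSO were taken, and not all are printed. Replicates of a group differed by more than sampling noise (chi-square per degree of freedom 7.41 to 59.8).

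Alternatives were DESeq2 1.42.0, DESeq2-type size factors, no filter or a stricter one (1 CPM in 4 libraries), the older form of the test, the 4 libraries alone, a replicate block, the acinar sum as covariate, and leaving out each library.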

Additional observations from a re-analysis of the deposited data

Results flagged for a closer look

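The direct test of whether the genotype difference changed with treatment called 204 genes in edgeR. Values here are the log2 genotype difference, knockout-labelled minus wild type, under DMXAA minus that under DMSO. Ccl4 (-7.59), Tnf (-7.22), Cxcl10 (-7.12), Ifit2 (-6.68), Ifi209 (-6.58), Ifi208 (-6.04), Gbp5 (-5.78), Rsad2 (-5.25), Ifit3 (-5.15), Ifit3b (-4.96), Oasl1 (-4.94) and Ifit1 (-4.91) are genes of the interferon, chemokine and cytokine response. Their genotype difference was more negative with the agonist, though Tnf passed this test narrowly (adjusted p = 0.0428). Ifnb1 had 0 or 1 count in each DMSO library, too few to estimate its genotype difference there. It was not called in this test (-10.41, SE 5.46, adjusted p = 0.632). Nor were Cxcl11 (adjusted p = 0.0877) and Heatr9 (adjusted p = 0.263), which had large negative differences under DMXAA.

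Kcnj2 (4.76), Apln (3.48), Chst1 (3.42), Dusp6 (3.10), Kcne3 (2.77), Sox18 (2.50), Kcnk5 (2.46), Gpnmb (2.37), Edn1 (2.37) and Bdkrb2 (2.30) had a more positive genotype difference with the agonist. Irf1 (-2.19) was higher in knockout-labelled islets with DMSO and lower with DMXAA. C2cd4a (-1.03), a gene linked to insulin secretion, had a positive genotype difference under both treatments, smaller with DMXAA. Its call with DMXAA (adjusted p = 0.0448 in edgeR) was lost in 11 of 16 alternatives, with an adjusted p of 0.354 without wild-type DMXAA library 1, 0.289 without wild-type DMXAA library 2, 0.174 without knockout-labelled DMXAA library 2, and 0.135 and 0.137 without knockout-labelled DMSO libraries 1 and 2.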

How the results depend on the processing

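Of 89 named genes called under DMXAA, 37 kept their call in every setting that tested them. The acinar covariate ended 48 named calls, of which 20 had a log2 difference as large as or larger than reported, 27 a smaller one of the same sign and 1 the opposite sign (median ratio to the reported value 0.916). Leaving out wild-type DMXAA library 1 ended 32, wild-type DMXAA library 2 ended 29 and knockout-labelled DMXAA library 2 ended 28. The cause was not tested. With the covariate 168 genes were called under DMXAA (53 higher, 115 lower), and 31.5% of calls were higher against 42.7% in the reported fit. That share was 32.5% in a fit of the 4 libraries alone (97 higher) and 24.9% without wild-type DMXAA library 1. Gm21738, a predicted gene called higher under both treatments (log2 difference 2.45 with DMXAA), reversed to -2.10 with the covariate (adjusted p = 0.544). DESeq2 called 616 genes under DMXAA (245 higher, 371 lower), 155 under DMSO and 312 for the change with treatment.

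Leaving out 1 library gave 205 to 674 calls under DMXAA (51 to 228 higher, 140 to 446 lower), 3 to 240 under DMSO and 87 to 304 for the change with treatment. The lone library of a group was then assumed to vary like the others. The 38 DMSO calls became 159 without a filter on low counts, 7 with the stricter filter, 17 in the older form of the test and 25 in the 4 libraries alone. Under all settings together 86 genes were called with DMXAA, 65 lower and 21 higher.

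Correlations of same-numbered deviations ran from -0.22 to 0.20 over the pairs of groups and were -0.14 between the DMXAA groups. They cannot show whether replicate numbers pair the samples, since each group has 2 libraries. The replicate block gave 417 calls under DMXAA, 56 under DMSO and 217 for the change. With crossed numbers the block gave 366 calls under DMXAA. With 2 libraries a group, small differences were not detectable.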

Other observations

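Of 6 tested Hsp70 and heat shock genes, assembled after the values were seen, 2 were called higher with DMXAA and 2 with DMSO. The shares over all genes tested were 1.02% called higher with DMXAA and 0.223% called in either direction with DMSO. Hspb1, Hsph1, Dnajb1 and Hspa8 were not called with DMXAA. Hspa1a, an inducible Hsp70, was at 82.7 and 82.9 CPM in the wild-type against 141 and 160 CPM in the knockout-labelled libraries with DMXAA (log2 difference 0.86, adjusted p = 0.0406 in edgeR), and the log2 difference with DMSO was 1.25 (adjusted p = 0.027). Its near-identical copy Hspa1b had log2 differences of 0.82 and 1.03, and reads may be shared between the copies. Without wild-type DMXAA library 1 the adjusted p with DMXAA was 0.291 for Hspa1a and 0.24 for Hspa1b. Among the fits that left out 1 library, Hspa1a kept its call only when that was a wild-type DMSO library. Hspa1b lost its call also without wild-type DMXAA library 2, without either knockout-labelled DMSO library and without knockout-labelled DMXAA library 2. With the acinar covariate the log2 difference was 0.20 for Hspa1a (adjusted p = 0.771) and 0.52 for Hspa1b (adjusted p = 0.374).

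MHC class II genes, which mark antigen-presenting cells, had 2 of 10 tested members called higher with DMXAA, H2-Aa and Cd74, and 4 called with DMSO. Their adjusted p with DMXAA was 0.039 and 0.0171, and without wild-type DMXAA library 1 it was 0.382 for H2-Aa and 0.173 for Cd74. Without wild-type DMXAA library 2 the values were 0.13 and 0.135, and without knockout-labelled DMXAA library 2 they were 0.352 and 0.14. H2-Aa was also lost without either knockout-labelled DMSO library (0.0945 and 0.0964). The group was assembled by symbol after the values were seen. Over all genes tested, 1.02% were called higher with DMXAA and 0.223% were called in either direction with DMSO. B and T lymphocyte markers had 3 members called higher with DMSO and summed to 46.0 and 5.51 CPM in wild-type islets with DMSO against 138.7 and 108.3 CPM in knockout-labelled ones. Their part in the MHC class II values was not tested.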
